A study of Mus musculus with 6 samples.

Results

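The receptors that bind the constant (Fc) part of IgG form a set of 6 genes here, Fcgr1, Fcgr2b, Fcgr3, Fcgr4, Fcer1g and Fcgrt, out of 22180 genes measured. They were chosen by name, but with earlier results of these data known. Each was measured by 1 probe set that carried its symbol alone. Macrophages were grown from bone marrow of 3 C57BL/KaLwRij mice with the growth factor M-CSF for 7 days and kept overnight with 5TGM1-luc cells, a mouse myeloma line that carries luciferase. They then received either 0.5 nM of an antibody against the mouse receptor CSF1R or a control IgG for 3 days, and RNA was taken after 4 washes against the myeloma cells. There were 3 arrays for each treatment, and both groups carried myeloma cells and an added antibody. No culture without added antibody or without myeloma cells was analysed here. Antibody isotypes and the dose of the control IgG are not stated in the labels. No label ties a replicate to a mouse, so p-values reflect only variation among these arrays, and that variation may be technical.

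Fc receptors couple antibody to phagocytes. Fcgr1, Fcgr3 and Fcgr4 encode activating receptors for IgG, which reach the cell surface with the common gamma chain encoded by Fcer1g and signal through the tyrosine motif (ITAM) of that chain. Fcgr2b encodes the inhibitory receptor, whose own tail holds an ITIM motif that recruits phosphatases. Fcgrt encodes the heavy chain of the neonatal Fc receptor (FcRn), which pairs with beta-2 microglobulin and returns IgG taken up into endosomes to the cell surface. CSF1R, the receptor for M-CSF, keeps macrophages alive and drives their differentiation.

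All 6 genes were higher with the CSF1R antibody than with IgG. The rises ran from 1.94-fold for Fcer1g to 5.06-fold for Fcgrt, and 5 of the 6 were at least 2-fold. For every one of them the 3 antibody arrays lay above the 3 IgG arrays, with gaps between the groups of 0.87 to 2.23 on the log2 scale. In the limma test over all genes (Benjamini-Hochberg adjusted p below 0.05), 12.5% of genes were higher and 16% were lower with the antibody, and 2.89% were higher by at least 2-fold. The 3 antibody arrays all lay above the 3 IgG arrays for 16.6% of genes. Among all called genes, 43.8% were higher with the antibody, and 59.2% after cyclic loess scaling of the arrays, under which the 6 receptor genes were still higher.

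**Figure D1:**
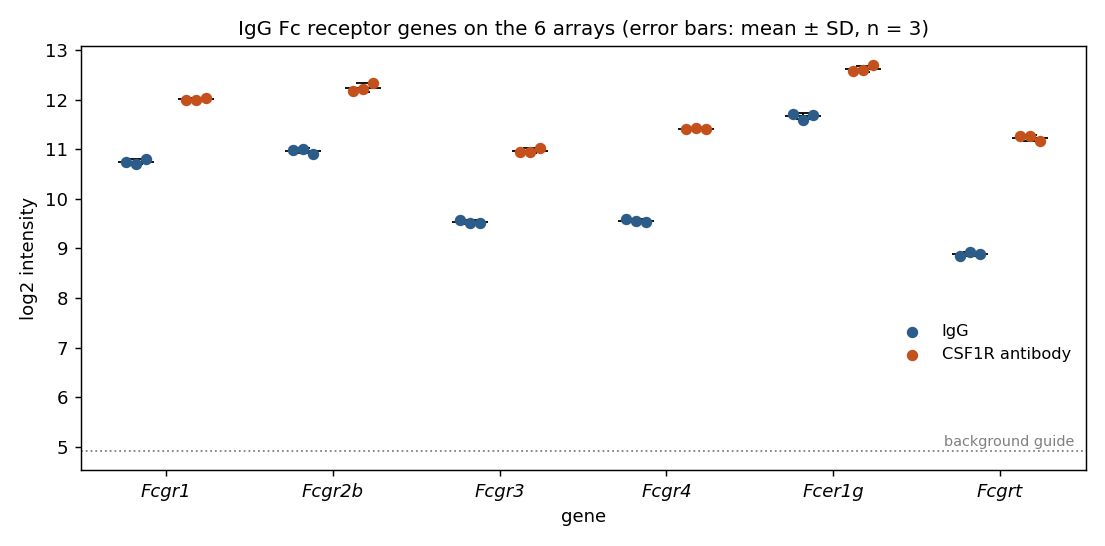
Log2 intensity (vertical axis) of the 6 IgG Fc receptor genes on each of the 3 IgG arrays (blue) and 3 CSF1R antibody arrays (orange), with mean ± SD as error bars and the background guide at 4.92 as a dotted line. In each gene the orange points lie above the blue points, and levels of different genes are not to be compared, since each probe set has its own response.

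Levels are log2 of the deposited intensity. Odorant and pheromone receptor genes served as a guide to background: for 1390 of them the 95th percentile of the mean level was 4.92, and all 6 receptor genes lay above it in both groups. Median signal was 4.88 to 4.95 over the 6 arrays, and arrays correlated at 0.992 to 0.993 within groups and at 0.984 to 0.985 between them (Pearson, over all probe sets). The spread between arrays of a group was small for the receptor genes, with pooled SDs of 0.024 to 0.071. Of all genes, 540 had exactly equal values over the 3 antibody arrays and 324 over the 3 IgG arrays, which makes their spread there 0. None of the 6 receptor genes was among them, while Fyn, Inppl1, Irf8, Ms4a2, Pag1, Pik3cd, Sh3bp2 and Vwf, named further on, were equal with the antibody.

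Fcgr1, the high-affinity receptor, which can bind single IgG molecules, read 12.00, 11.99 and 12.03 with the antibody and 10.74, 10.70 and 10.79 with IgG. The groups were 1.20 apart at their closest. Its rise was 1.27 on the log2 scale (SE 0.048; 95% interval 1.15 to 1.38; 2.41-fold; limma adjusted p = 1.2e-05), and 346 genes had a larger rise.

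Fcgr3, a low-affinity activating receptor that depends on clustered IgG, read 10.94, 10.95 and 11.02 with the antibody and 9.58, 9.51 and 9.51 with IgG. Its rise was 1.44 (SE 0.049; 2.71-fold; limma adjusted p = 1.1e-05).

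Fcgr4, another activating receptor found on mouse monocytes and macrophages, read 11.40, 11.43 and 11.41 with the antibody against 9.59, 9.56 and 9.53 with IgG. The antibody arrays differed from each other by far less than the 1.81 that separated the groups. The rise of 1.85 (SE 0.044; 95% interval 1.75 to 1.96; 3.61-fold; limma adjusted p = 8.1e-06) was exceeded by 64 genes.

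Fcer1g, the signalling chain shared by the activating receptors, read 12.58, 12.59 and 12.69 with the antibody and 11.71, 11.59 and 11.68 with IgG. Its rise of 0.96 (SE 0.057; 95% interval 0.82 to 1.09; 1.94-fold; limma adjusted p = 5.3e-05) was the smallest of the 6. The activating receptors that need this chain rose by 1.27 to 1.85.

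Fcgr2b, the inhibitory receptor, read 12.17, 12.21 and 12.34 with the antibody and 10.97, 11.01 and 10.91 with IgG. Antibody replicate 3 was the highest, and the SD pooled over both groups, 0.071, was the largest of the 6, although with IgG alone Fcer1g and Fcgr1 varied more. Its rise was 1.28 (SE 0.062; 95% interval 1.13 to 1.42; 2.42-fold; limma adjusted p = 2.4e-05).

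Fcgrt, the FcRn heavy chain, read 11.27, 11.27 and 11.16 with the antibody and 8.86, 8.93 and 8.89 with IgG, and the values on antibody replicates 1 and 2 were identical. On the linear scale these were intensities of 2294 to 2464 against 463 to 489. The rise of 2.34 (SE 0.052; 95% interval 2.21 to 2.47; 5.06-fold; limma adjusted p = 8.1e-06) was the largest of the 6, and 20 of the 22180 genes rose more.

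B2m, which encodes the partner chain of FcRn and of MHC class I molecules, did not pass the test. It read 13.54, 13.58 and 13.65 with the antibody and 13.59, 13.57 and 13.54 with IgG, so the groups overlapped (change 0.02, SE 0.049; limma adjusted p = 0.79). B2m was a listed gene but was picked out here after its value was seen.

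**Figure D2:**
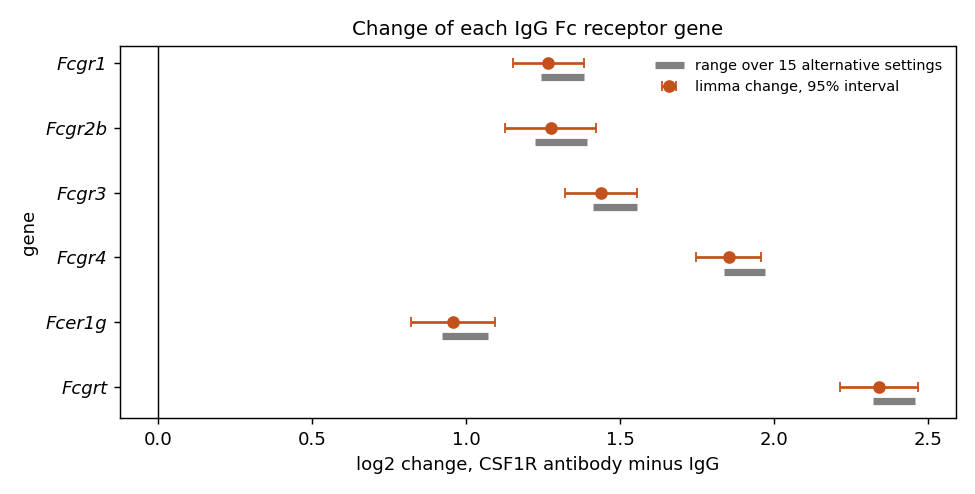
Log2 change (CSF1R antibody minus IgG, horizontal axis) of each of the 6 genes, with orange points and 95% intervals from limma and grey bars for the range over 15 alternative settings. All intervals and ranges lie above 0, with Fcer1g lowest at 0.96 and Fcgrt highest at 2.34.

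The balance of activating and inhibitory receptors was compared within each array, as log2 of one gene minus log2 of Fcgr2b. A change in this value shows unequal change of the signals and not which receptor is more abundant. Each probe set has its own response, so unequal change of signal need not mean unequal change of RNA, and this was not tested. Fcgr4 minus Fcgr2b was −0.93 to −0.77 with the antibody and −1.45 to −1.38 with IgG, without overlap, so that the fold change of Fcgr4 was 1.49 times that of Fcgr2b. Fcgr3 minus Fcgr2b was −1.32 to −1.23 against −1.50 to −1.39, also without overlap, a shift of 0.16. Fcer1g moved the other way, with 0.35 to 0.41 on the antibody arrays against 0.58 to 0.77 on the IgG arrays, a shift of −0.32. For these 3 pairs the two-sided exact permutation test gave p = 0.10, the smallest that 3 against 3 arrays allow, and p = 0.13 after Benjamini-Hochberg adjustment over the 4 pairs, so none can pass at 0.05. Fcgr1 minus Fcgr2b was −0.31 to −0.17 against −0.31 to −0.12, with a shift of −0.0085 (exact permutation p = 1). That shift changed sign when antibody replicate 3 (0.029) or IgG replicate 3 (0.044) was left out, and its p does not show that both genes rose alike.

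In this bulk RNA, more macrophages in a culture and more receptor RNA per macrophage cannot be told apart. Of 10 macrophage markers measured, 10 rose, where 12.5% of all genes rose and 16% fell. Their changes were 0.33 (Cd68) to 1.74 (Cd14), with a median of 1.18. Log2 of their summed signal was 14.96 to 15.03 with the antibody against 14.14 to 14.19 with IgG. They include Csf1r, which encodes the target of the antibody (1.12, SE 0.051), so their mean is not independent of that target. Of 8 plasma cell markers, 6 fell and 0 rose, with a median change of −0.32 and log2 of the summed signal at 13.25 to 13.27 against 13.63 to 13.71. Against the mean of the macrophage markers on the same array, Fcgrt was still higher with the antibody, at 0.02 to 0.18 against −1.09 to −1.01, a shift of 1.19. Fcgr4 shifted by 0.70, Fcgr3 by 0.29, Fcgr2b by 0.12 and Fcgr1 by 0.11 relative to the same markers, while Fcer1g shifted by −0.20. The changes of Fcgr1, Fcgr2b, Fcgr3 and Fcer1g lay within the range of the markers' own changes, while those of Fcgr4 and Fcgrt lay above it. The part of cell number in the rises was not tested.

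Markers of mast cells, neutrophils, NK cells and B cells mostly lay under the background guide. Of 8 mast cell markers, 8 were under the background guide with either treatment, among them Fcer1a and Ms4a2, which encode the other chains of the IgE receptor that uses Fcer1g. Mast cell, neutrophil and NK cell markers had 0 members past the limma test out of 8, 9 and 6, and 0 at an unadjusted p below 0.05, where 12.5% of all genes rose and 16% fell. Their median changes were 0.0018, 0.02 and −0.01, and 8 of the 9 neutrophil and 5 of the 6 NK cell markers were under the guide with either treatment. Of 7 B cell markers measured, 1 fell, Cd79b (9.24 against 9.66; −0.42, SE 0.055), and 5 lay below the guide. Of 6 dendritic cell markers, 1 rose, Batf3, which was under the guide with IgG. Cd209a lay far above the guide and did not pass (9.42 against 9.36, limma adjusted p = 0.58). Of 6 endothelial markers, 2 rose, Kdr and Vwf, and their values are given under the other observations. Of 8 stromal markers, 3 fell, and 1 rose, Dcn, which was under the guide with either treatment. Marker genes named in this paragraph were picked out with their values known. The part of these cells in the receptor values was not tested.

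Fcgr2b, Fcgr4 and Fcgr3 lie side by side on mouse chromosome 1 in the RefSeq gene table (GRCm38.p6), with Fcer1g farther along the same chromosome, Fcgr1 on chromosome 3 and Fcgrt on chromosome 7. Of 18 measured genes among the 3 nearest named genes on each side of each receptor gene, 2 rose and 0 fell, where 12.5% of all genes rose and 16% fell, with changes of −0.19 to 0.44 and a median of −0.01. Those that rose were Cfap126, next to Fcgr3 (0.44, SE 0.071), and Prrg2, near Fcgrt (0.30, SE 0.073). On the far sides of the Fcgr cluster, Fcrla (5.29 against 5.22; limma adjusted p = 0.60) and Sdhc (9.37 against 9.47; adjusted p = 0.19) did not pass. Fcgr2b, Fcgr3 and Fcgr4 are related in sequence, and a part of the signal of one may come from RNA of another, since the probes of these sets were not examined here.

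**Figure D3:**
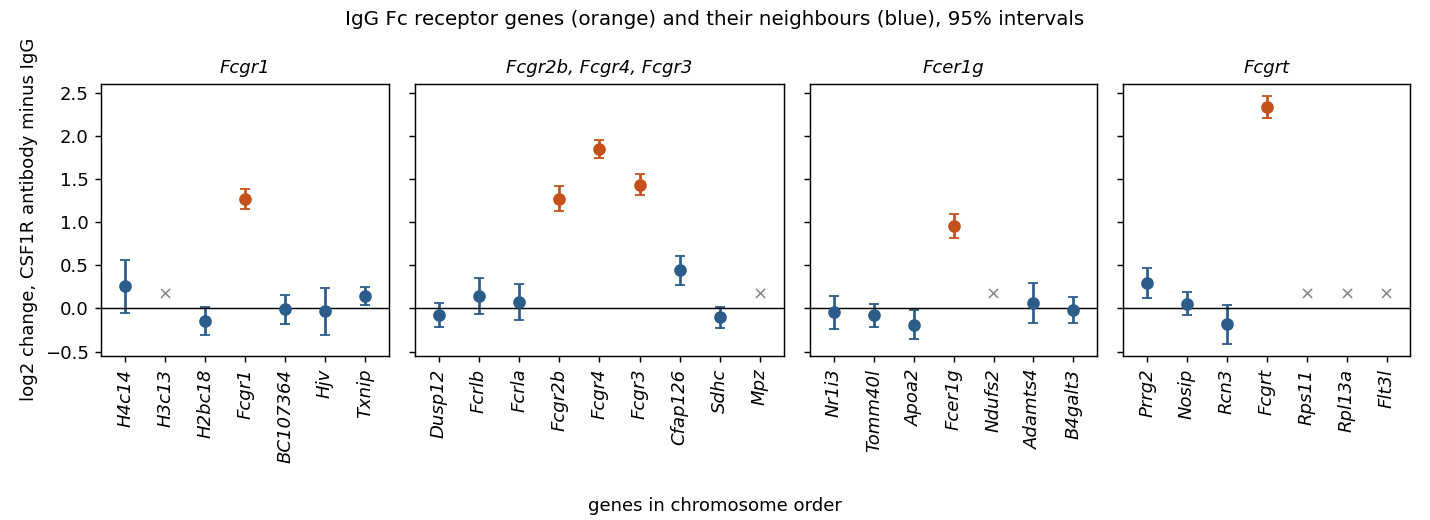
Log2 change (CSF1R antibody minus IgG, vertical axis) of the IgG Fc receptor genes (orange) and of the 3 nearest named genes on each side (blue) in chromosome order, with 95% intervals from limma; a grey cross marks a gene not analysed here. Receptor genes lie between 0.96 and 2.34, and their measured neighbours between −0.19 and 0.44.

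Promoters of the 4 Fcgr genes are shown because these genes rose together. Each is the 250 bases before the first RefSeq start (GRCm38.p6), 5′ to 3′ in the direction of the gene. Capitals mark matches, on either strand, to GAGGAA (the core bound by the macrophage factor PU.1), TTCNNNGAA (the GAS element bound by STAT factors), the interferon-stimulated response element (ISRE, a pair of GAAA words with 2 bases between them) and TTGCNNAA (a C/EBP core).
Fcgr1, chr3:96293970-96294219, minus strand: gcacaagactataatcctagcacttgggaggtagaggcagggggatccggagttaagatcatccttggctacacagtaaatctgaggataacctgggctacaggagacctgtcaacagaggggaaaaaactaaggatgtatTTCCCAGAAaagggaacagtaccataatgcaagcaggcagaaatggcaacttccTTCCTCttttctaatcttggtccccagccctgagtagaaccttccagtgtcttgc
Fcgr4, chr1:171018676-171018925, plus strand: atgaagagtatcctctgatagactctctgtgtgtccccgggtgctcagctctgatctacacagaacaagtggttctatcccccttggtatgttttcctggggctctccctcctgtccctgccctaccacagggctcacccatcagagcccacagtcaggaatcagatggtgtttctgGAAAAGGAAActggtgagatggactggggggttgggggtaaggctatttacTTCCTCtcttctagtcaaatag
Fcgr3, chr1:171059404-171059653, minus strand: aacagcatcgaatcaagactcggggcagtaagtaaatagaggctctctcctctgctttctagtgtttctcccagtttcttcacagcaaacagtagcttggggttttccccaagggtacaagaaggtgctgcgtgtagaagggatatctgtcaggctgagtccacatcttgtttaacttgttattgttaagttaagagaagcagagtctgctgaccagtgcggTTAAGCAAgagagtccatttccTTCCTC
Fcgr2b, chr1:170976072-170976321, minus strand: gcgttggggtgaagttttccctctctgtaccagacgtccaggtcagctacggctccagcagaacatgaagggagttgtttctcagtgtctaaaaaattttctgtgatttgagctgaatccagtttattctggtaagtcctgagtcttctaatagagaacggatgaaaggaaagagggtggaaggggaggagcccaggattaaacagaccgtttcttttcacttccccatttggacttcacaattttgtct

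GAGGAA was found in 3 of the 6 receptor promoters (Fcgr1, Fcgr3 and Fcgr4) and in 23.3% of all 32817 RefSeq windows of the same length. In Fcgr4 it lay 22 to 17 bases before the start, and in Fcgr1 55 to 50 bases before it. Fcgr1 also held 1 GAS match, at 109 to 101 bases before the start, as did 7.01% of all windows. Fcgr4 held 1 interferon response element match, at 73 to 64 bases, against 2.97% of windows, and Fcgr3 and Fcgrt each held a C/EBP match, against 9.57%. The Fcgr2b and Fcer1g windows held 0 of the 4 motifs. No match overlapped another, and a match describes letters only: whether a factor was bound was not measured.

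Known regulators of Fc receptor genes were higher in every case measured. This list, like those that follow, was drawn up with earlier results of these data known. Of 15 measured, 15 rose, where 12.5% of all genes rose. The median change was 1.06, against −0.02 over all genes. The macrophage markers, of which 10 of 10 rose, had a median change of 1.18. Il10ra, a receptor chain for IL-10, rose by 1.78 (SE 0.053), and Irf8, a transcription factor of the monocyte lineage, by 1.73 (SE 0.045). Il4ra, a receptor chain for IL-4, rose by 1.60 (SE 0.058) and C5ar1, the receptor for complement C5a, by 1.49 (SE 0.055). Spi1, which encodes PU.1, went from 8.47 ± 0.10 (SD, n = 3) to 9.35 ± 0.03, a rise of 0.88 (SE 0.062; limma adjusted p = 0.00012), and was picked out after its value was seen.

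Genes that carry the signal of the activating receptors were higher in part. Of 24 ITAM signalling genes measured, 15 rose, 1 fell and 8 did not pass, where 12.5% of all genes rose and 16% fell. Their median change was 0.45. All 24 lay above the background guide in both groups, while 13110 of all 22180 genes lay above it in either group. The largest rises were in adaptor and kinase genes: Fyb, an adaptor that links receptors to actin (1.24, SE 0.063), Pik3cd, a catalytic subunit of PI3-kinase (1.20, SE 0.073), and the adaptor genes Gab2 (1.14, SE 0.050) and Sh3bp2 (1.12, SE 0.058). Syk, the kinase that docks on the phosphorylated ITAM, rose by 0.51 (SE 0.046), from 9.10 ± 0.04 to 9.61 ± 0.03 (SD, n = 3). Tyrobp, the adaptor DAP12, which is a relative of the Fcer1g chain, rose by 0.91 (SE 0.046), close to the 0.96 of Fcer1g. The 1 member that fell was the Src family kinase gene Fyn (−0.39, SE 0.042). Syk, Tyrobp and Fyn were picked out with their values known.

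On the inhibitory side, 8 of 12 ITIM signalling and restraining genes rose and 1 fell, against 12.5% and 16% of all genes. Their median change was 0.63, and all 12 lay above the background guide in both groups. Inppl1, which encodes the lipid phosphatase SHIP2, rose by 1.07 (SE 0.068), the phosphatase gene Ptpn22 by 1.04 (SE 0.049), the ubiquitin ligase gene Cblb by 1.01 (SE 0.061) and Pag1, a membrane adaptor for the kinase Csk, by 0.99 (SE 0.092). Inpp5d encodes SHIP1, the phosphatase through which Fcgr2b acts. Inpp5d read 9.81, 9.89 and 9.76 with the antibody and 9.75, 9.77 and 9.77 with IgG, so the groups overlapped (limma adjusted p = 0.50). The 1 member that fell was the phosphatase gene Ptpn11 (−0.29, SE 0.046), and both Inpp5d and Ptpn11 were picked out with their values known.

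Genes of the phagocytic cup and of actin assembly rose in 19 of 29 cases and fell in 2, against 12.5% and 16% of all genes. Their median change was 0.28, and all 29 lay above the background guide in both groups. Marcks, which binds actin and phosphoinositides at the membrane, led with 1.71 (SE 0.047; 3.26-fold), followed by the myosin gene Myo1f (1.24, SE 0.049), the small GTPase gene Rhog (1.06, SE 0.056) and Asap1, a regulator of Arf GTPases (0.82, SE 0.048). The members that fell were the phospholipase gene Pla2g4a (−0.28, SE 0.047) and the lipid kinase gene Pip5k1a (−0.22, SE 0.064). The count that rose was 25 with cyclic loess scaling, 16 with the replicate number as a block and 16 to 17 when any 1 array was left out.

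Of 10 other receptors that use the Fcer1g chain, 5 rose and 0 fell, where 12.5% of all genes rose and 16% fell. The C-type lectin genes Clec4e (2.74, SE 0.066), Clec4n (2.55, SE 0.086) and Clec4d (1.16, SE 0.073) encode Mincle, Dectin-2 and MCL, receptors for microbial glycolipids and mannans, and Cd300ld encodes a CD300 receptor (0.79, SE 0.068). The other member that rose, Clec4b1, was under the guide with either treatment, as were 5 members that did not pass.

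Among 13 other Fc receptors and Fc-binding proteins, 3 rose and 1 fell, against 12.5% and 16% of all genes, with a median change of 0.08, and 8 lay below the guide in both groups. Fcrls, an Fc receptor-like gene of the macrophage lineage, read 8.74, 8.58 and 8.78 with the antibody against 6.89, 6.62 and 6.86 with IgG, a rise of 1.91 (SE 0.092; 3.76-fold; limma adjusted p = 2.4e-05). Trim21, which encodes an IgG receptor of the cytosol, rose by 1.13 (SE 0.090) and Fcrl1 by 0.79 (SE 0.053). The 1 that fell, Pigr (−0.17, SE 0.052), lay below the guide, and its call was lost under 11 of 15 alternatives. Of the listed immunoglobulin chain genes, 3 of 9 had a probe set with their symbol alone and were analysed. Ighg3 was the only IgG heavy chain gene among them. Ighg3 did not pass (4.465 against 4.202, both below the guide, limma adjusted p = 0.052). Jchain fell by 0.42. Ighm, the heavy chain gene of IgM, did not pass on the probe set of highest mean among its 7 (12.74 against 12.88, limma adjusted p = 0.31).

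**Figure D4:**
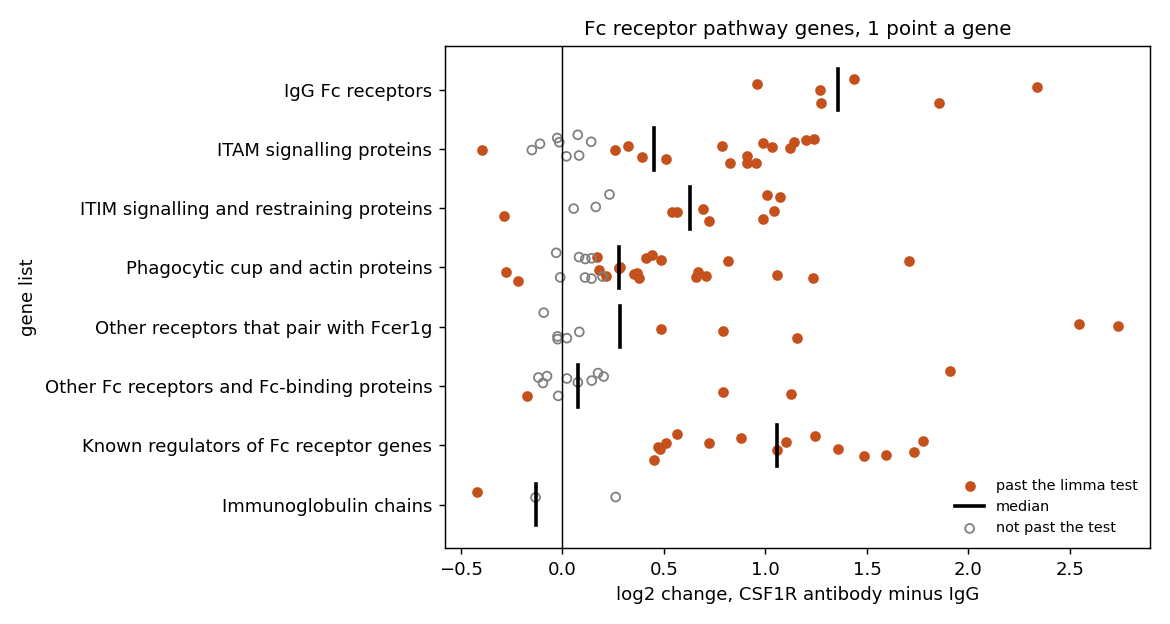
Log2 change (CSF1R antibody minus IgG, horizontal axis) of each measured gene in 8 lists, with filled orange points past the limma test, open grey points not past it, and a black bar at the median. The medians are 1.36 for the IgG Fc receptors, 1.06 for regulators, 0.63 for ITIM signalling and 0.45 for ITAM signalling genes.

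The genes whose values followed the mean of Fcgr1, Fcgr2b, Fcgr3 and Fcgr4 most closely over the 6 arrays were Aoah, which encodes an enzyme that inactivates lipopolysaccharide, Zcchc24, Ptafr, which encodes the receptor for platelet-activating factor, Tmem64 and Prkcd, which encodes a protein kinase C. Pearson r ran from 0.9998 for Prkcd to 0.99995 for Aoah. The 6 arrays form 2 groups, so such values describe mainly the difference between treatments. Their rises were 2.68 for Aoah, 1.43 for Zcchc24, 1.78 for Ptafr, 0.90 for Tmem64 and 0.82 for Prkcd.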

How the data were processed

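RNA was hybridised to 6 GeneChip Mouse Gene 2.0 ST arrays, 3 per group by the labels. The deposited values are linear intensity values, 1 for each probe set. The submitters' processing notes list RMA and limma without versions or roles. RMA normally equalises the distributions of arrays and compresses fold changes, so a shift shared by most genes could not be seen. How probes were summed, and on which genome build, is not stated in the labels.

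Values were taken as log2. Gene symbols were those of the platform annotation, brought up to date through RefSeq (GRCm38.p6). Of 41345 probe sets, 23521 had 1 symbol, 1814 several and 16010 none. Only the first were used, with the probe set of highest mean per gene. No signal filter was set. The number of arrays limits the precision.

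The comparison used limma 3.58.1 under R 4.3.3 (lmFit, eBayes; Benjamini-Hochberg over 22180 genes; threshold 0.05), tested on simulated data. There it found 58.6% of log2 changes of 0.5 and 86.6% of log2 changes of 1, and 3.59% of calls were false. A gene that did not pass may therefore still have changed. Figures used matplotlib 3.10.9. Promoter sequences came from RefSeq, and all 6 genes matched. The receptor genes, gene lists and tests were chosen with earlier results of these data known. Genes were named by rule: the 6 receptors, up to 4 of the largest called changes per list, the 3 neighbours on each side and the 5 genes closest in pattern. Other genes named, such as single markers and the members of a list that fell, were picked out after their values were seen. Over all genes, deviations of same-numbered arrays from their group means correlated at 0.03, −0.05 and 0.003. Differently numbered arrays were not compared, so these values do not decide whether replicate numbers pair the arrays.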

Additional observations from a re-analysis of the deposited data

How the results depend on the processing

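All 6 receptor genes rose under each of the 16 alternatives run for their count, with ranges of 1.24 to 1.38 for Fcgr1, 1.23 to 1.39 for Fcgr2b, 1.41 to 1.56 for Fcgr3, 1.84 to 1.97 for Fcgr4, 0.92 to 1.07 for Fcer1g and 2.32 to 2.46 for Fcgrt, and a highest adjusted p of 0.00093 (Fcer1g, replicate block). With the replicate number as a block, 6 receptor genes rose and 0 fell, 2569 genes were higher and 2980 lower over all genes, 1 phagocytic gene fell in place of 2 and 0 other Fc-binding genes fell in place of 1. Counts of falling genes in the lists were small and moved by single genes. Other Fc-binding genes that fell were 0 with an intensity trend, robust variances, median centring, cyclic loess or only genes above the 50th percentile. Phagocytic genes that fell were 1 with median centring or cyclic loess. Immunoglobulin chains that rose were 1 in place of 0 with median centring, cyclic loess or genes above the 25th percentile, and those that fell were 2 when all probe sets of a gene were averaged. ITAM genes that fell were 2 with genes above the 50th percentile. Leaving out each array gave 0 to 1 for other Fc-binding genes that fell, 1 to 2 for phagocytic genes that fell, 0 to 1 and 1 to 2 for immunoglobulin chains that rose and fell, and −0.054 to 0.044 for Fcgr1 minus Fcgr2b, positive without antibody replicate 3 (0.029) and IgG replicate 3 (0.044). The cause of these moves was not tested. Background was not measured on these arrays, so probe sets under the guide say little about change.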

Other observations

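Of 6 endothelial markers, a cell type in which Fcgr2b and Fcgrt are also used, 2 rose, where 12.5% of all genes rose. Kdr, which encodes a receptor for VEGF, rose by 1.34 (SE 0.058), from 6.79 to 8.13. Vwf, which encodes von Willebrand factor, rose by 1.00 (SE 0.052), from 5.16 to 6.16, with equal values on the 3 antibody arrays. Pecam1 (6.22 against 6.11; limma adjusted p = 0.31) and Cdh5 (4.95 against 4.82; adjusted p = 0.46) did not pass, and Tek and Emcn were under the guide with either treatment. Fcrl1, an Fc receptor-like gene best known from B cells, read 6.44, 6.56 and 6.51 with the antibody and 5.74, 5.73 and 5.67 with IgG. Of 7 B cell markers, 5 were under the guide with either treatment, Cd79b fell (9.24 against 9.66) and Pax5 did not pass (5.38 against 5.55; limma adjusted p = 0.26). The part of these cell types in the receptor values was not tested. These genes were picked out after their values were seen.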
